A study of Rattus norvegicus with 22 samples.

Results

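The genes described here are the ligands and receptors of the CXCR2 chemokine axis in the rat tongue. They were chosen by name as Cxcl1, Cxcl2, Cxcl3, Cxcl6, Ppbp, Pf4, Cxcr1 and Cxcr2, which makes 8 genes of the 19167 gene symbols on the array and 9 probes of 30367, since Cxcl3 has 2 probes. Tissues came from 11 male F344 rats that were given 4-nitroquinoline-1-oxide (4-NQO), a chemical carcinogen that forms DNA adducts, in drinking water, at a dose of 20 ppm over 10 weeks. Each rat gave 1 piece of oral squamous cell carcinoma (OSCC) of the tongue and 1 piece of adjacent phenotypically normal tongue, at about 33 weeks of age and 23 to 26 weeks after exposure began. The normal pieces were thus from carcinogen-treated rats, although the deposited titles call all 22 samples untreated and the treatment label of the normal pieces reads none. Tongues of unexposed rats were not analysed here, and both groups share the 4-NQO exposure, strain and sex.

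CXC chemokines are small secreted proteins that guide leukocytes. Those with an ELR motif before the paired cysteines, to which Cxcl1, Cxcl2, Cxcl3 and Cxcl6 belong, bind the receptor Cxcr2 and draw neutrophils into inflamed tissue, and in many cell types their transcription is raised by interleukin-1, tumor necrosis factor and interleukin-17 through NF-kappaB. Ppbp is stored in platelets and is cut into a Cxcr2 ligand by proteases, and Pf4, its neighbor in the genome, lacks the ELR motif and is not a classical Cxcr2 ligand.

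Each piece was measured on a one-color Agilent array, and the levels given are log2 signals relative to the 75th percentile of the same array, so that 0 is the level of a fairly bright probe. The 75th percentile signal ran from 236.8 to 654.9 units on the normal arrays and from 338.7 to 1414 on the OSCC arrays, and 48.4% to 56.1% and 52.3% to 65.5% of the probes were well above background. A probe was called when limma, with rat and tissue as terms, gave a Benjamini-Hochberg adjusted p below 0.05 over all probes and a change of at least 2-fold. All 11 normal arrays were scanned on 1 day, as were the OSCC arrays of animals 4 and 9, whereas the other 9 OSCC arrays were scanned on another day, and no slide held both tissues, so slide and tissue cannot be told apart. The keratinocyte genes Krt5, Krt14 and Tp63 were well above background on all 22 arrays.

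The probes of the 6 ligands lie within 148.6 kb of chromosome 14 on the minus strand, at chr14:18677165-18825755 of assembly rn4, and the receptor probes lie on chromosome 9. The array names the receptors Il8ra and Il8rb, and these were matched to Cxcr1 and Cxcr2 through RefSeq. The 2 Cxcl3 probes, which gave different results, start with the 30 bases printed here because they show that the probes query different sequence, at chr14:18786265-18786324 for the probe annotated with the GenBank sequence D87927 and at chr14:18767637-18767696 for the probe that carries the symbol Cxcl3.
Cxcl3 (D87927 probe): tctcttgtacggtgatggaggacctgcctc
Cxcl3 (symbol probe): tgaagtttatgtacagtgttgagtttgaaa

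The probes of the neighbors Ppbp and Pf4, at chr14:18816439-18816498 and chr14:18812555-18812614, are given in full because their results also differed. The longest run of bases that they share, in capitals, is 9 of 60, and no other pair of member probes shares a longer one.
Ppbp: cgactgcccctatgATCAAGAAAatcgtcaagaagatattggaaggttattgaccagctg
Pf4: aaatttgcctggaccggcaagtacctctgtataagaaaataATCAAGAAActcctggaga

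Of the 8 genes, 6 are in the promoter table of RefSeq assembly GRCr8, all except Cxcl3 and Pf4. The NF-kappaB consensus occurs within the 250 bases before the start of 3 of the 6, on either strand, and in 3.54% of all 33469 promoters in the table. The motif was chosen after the sequences were seen. The 100 bases around it follow for Cxcl2 (chr14:17467270-17467369), Cxcl1 (chr14:17479346-17479445) and Cxcl6 (chr14:17596446-17596545), all on the minus strand, with the matching stretch in capitals. They are shown because these are the members with a match. The split of OSCC pieces described further on was shared by Ppbp, which has none.
Cxcl2: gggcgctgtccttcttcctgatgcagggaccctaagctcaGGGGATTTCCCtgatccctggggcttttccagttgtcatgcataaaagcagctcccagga
Cxcl1: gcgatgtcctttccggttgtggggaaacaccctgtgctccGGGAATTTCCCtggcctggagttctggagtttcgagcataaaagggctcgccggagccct
Cxcl6: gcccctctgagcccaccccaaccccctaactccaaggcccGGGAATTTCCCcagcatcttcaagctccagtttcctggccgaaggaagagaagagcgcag

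The match begins 74 bases before the start of Cxcl2, 84 before that of Cxcl1 and 88 before that of Cxcl6. The same 250 bases of Ppbp, Cxcr1 and Cxcr2 hold no match to the consensus. A match describes letters only, and no binding was measured.

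All 6 ligand genes rose in OSCC, Cxcl3 by 1 of its probes, and so did the receptor Cxcr2, while Cxcr1 and the symbol probe of Cxcl3 did not pass the test. In all, 7 of the 9 probes were called higher and 0 lower, where 6.86% of all probes were called higher, 6.97% lower and 13.8% either way. The OSCC and normal arrays of every member overlapped, which does not set the members apart. Only 0.665% of all probes had every OSCC array above every normal array. Only 4 of the 9 probes (Cxcl1, Cxcl2, Pf4 and Cxcr2) were well above background on at least 11 of the 22 arrays. In normal tissue all members except Cxcl1 and Pf4 were well above background on at most 3 of 11 arrays, so their normal levels are mostly background and their folds depend on how background is corrected. The fold under another correction, normexp, is therefore given beside each.

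Cxcl2, a chemokine released by macrophages and epithelium, had the largest difference of the members. Its level in normal tissue ran from -6.32 to -0.09 with a median of -4.69, and in OSCC from -2.79 to 4.81 with a median of 3.39. The normal pieces of animals 24 and 25 stood above the other 9 normal pieces, and 7 of the OSCC pieces lay above every normal piece. The difference was 5.99 ± 0.90 (SE, n = 11 pairs; limma adjusted p = 6e-04), a 63.5-fold rise (14.9-fold with normexp) that was seen in 10 of 11 pairs, and the probe stood well above background in 2 normal pieces and in all 11 OSCC pieces.

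Cxcl1, the closest rat relative of human GRO-alpha, had normal levels from -4.05 to -2.01 with a median of -3.59 and OSCC levels from -3.76 to 3.07 with a median of 1.30. The normal piece of animal 24 was the highest of the normal pieces, and the 4 lowest OSCC pieces lay within the normal range. The difference was 3.49 ± 0.79 (SE, n = 11 pairs; limma adjusted p = 0.005), an 11.3-fold rise (5.24-fold with normexp), and 9 of 11 pairs were higher in OSCC.

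The D87927 probe of Cxcl3, a neutrophil-attracting ligand close to Cxcl2 in sequence, ran from -6.11 to -0.16 in normal tissue with a median of -5.62 and from -5.87 to 4.12 in OSCC with a median of 2.72. In normal tissue it was well above background only in animal 24. The difference was 5.27 ± 1.21 (SE, n = 11 pairs; limma adjusted p = 0.0055), 38.6-fold (10.1-fold with normexp), and 10 of 11 pairs were higher.

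The symbol probe of Cxcl3 gave another picture. It ran from -6.29 to -4.73 in normal tissue with a median of -6.01 and from -7.19 to -4.52 in OSCC with a median of -5.85, and it was well above background on 1 of the 22 arrays. The difference was -0.17 ± 0.25 (SE, n = 11 pairs; limma adjusted p = 0.58), with a 95% interval from -0.70 to 0.36. The probes of this gene therefore disagree, and the reason was not tested.

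Cxcl6, a ligand of both receptors in other species, ran from -6.22 to -4.23 in normal tissue with a median of -5.97, and from -5.93 to 2.49 in OSCC with a median of 0.67. It was well above background on 1 normal array, that of animal 24, and on 7 OSCC arrays. The difference was 4.57 ± 1.02 (SE, n = 11 pairs; limma adjusted p = 0.0046), 23.7-fold (5.53-fold with normexp), with 9 of 11 pairs higher.

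Ppbp, the platelet chemokine, ran from -6.39 to 0.09 in normal tissue with a median of -5.94, and from -5.95 to 3.33 in OSCC with a median of 0.29. The normal piece of animal 24 lay at 0.09, which was 4.86 above the next normal piece and above 5 of the 11 OSCC pieces. The difference was 4.31 ± 1.25 (SE, n = 11 pairs; limma adjusted p = 0.018), 19.9-fold (5.44-fold with normexp), with 10 of 11 pairs higher. In the 9 pairs whose pieces were scanned on different days it was 3.68 (limma adjusted p = 0.082), so the call was lost there.

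Pf4, also a platelet chemokine, was well above background on all 22 arrays and changed least of the called members. Its level ran from -1.02 to 0.42 in normal tissue with a median of -0.26 and from -0.18 to 3.28 in OSCC with a median of 0.97. The OSCC piece of animal 17 stood above the rest, and that of animal 22 was the only OSCC piece that did not exceed every normal piece. The difference was 1.49 ± 0.30 (SE, n = 11 pairs; limma adjusted p = 0.0026), 2.81-fold (2.25-fold with normexp), and all 11 pairs were higher, as they were for 4.61% of all probes.

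Cxcr2, the receptor on neutrophils, ran from -6.08 to -2.23 in normal tissue with a median of -4.33 and from -4.70 to 0.54 in OSCC with a median of -0.56. It stood well above background in 3 normal pieces and 9 OSCC pieces, and 8 OSCC pieces exceeded every normal piece. The difference was 2.95 ± 0.56 (SE, n = 11 pairs; limma adjusted p = 0.0019), 7.70-fold (2.99-fold with normexp), and all 11 pairs were higher.

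Cxcr1, the second receptor of this family, ran from -6.79 to -5.26 in normal tissue with a median of -6.12 and from -7.34 to -4.92 in OSCC with a median of -6.66. It was well above background only in the OSCC piece of animal 4, so a change of this gene was not measurable with this probe. The difference was -0.34 ± 0.25 (SE, n = 11 pairs; limma adjusted p = 0.26).

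**Figure D1:**
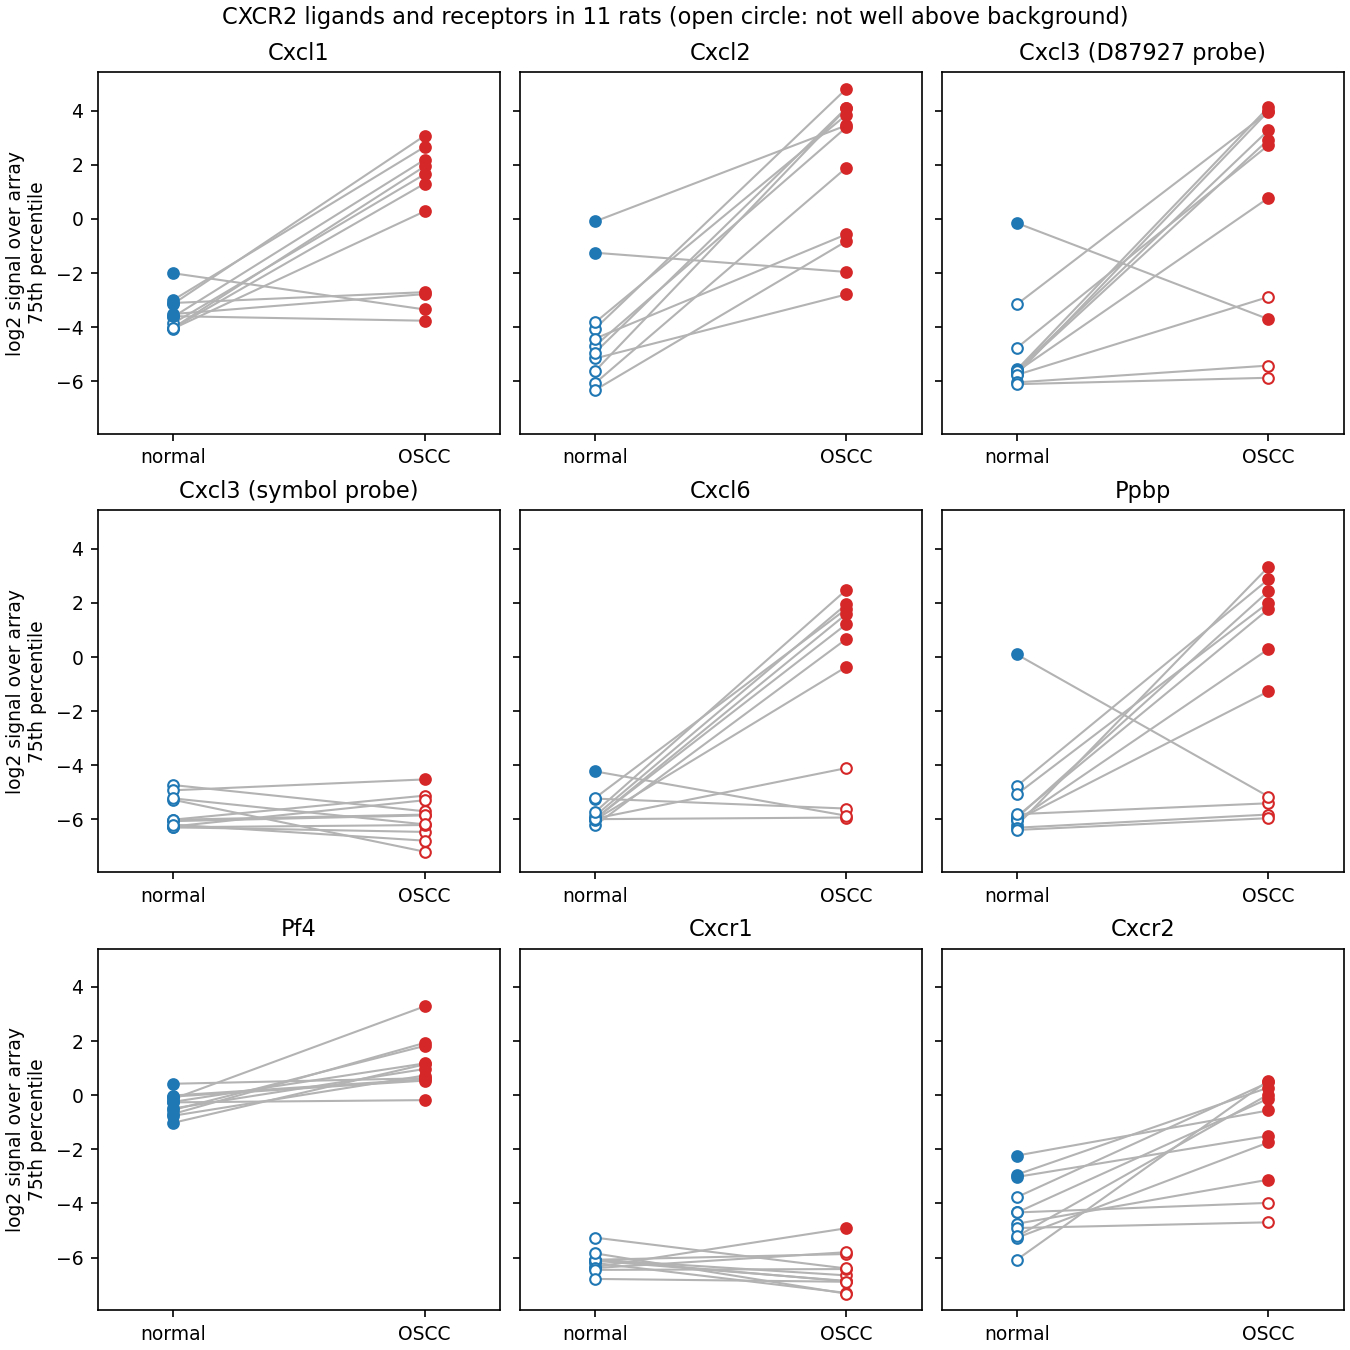
Log2 signal over the array's 75th percentile of each member probe in the normal and OSCC piece of each of 11 rats, with lines joining the pieces of a rat and open circles where the probe was not well above background. In the panels of Cxcl1, Cxcl2, Cxcl3 (D87927 probe), Cxcl6 and Ppbp, 7 OSCC pieces lie above a wide gap and 4 below it.

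With scan day added as a term, which leaves only animals 4 and 9 to separate tissue from day, limma called 0 of the 9 members, with adjusted p from 0.085 (Cxcl2 and Cxcl3) to 0.86 (Cxcr1). The differences of Cxcl1, Cxcl2, Cxcl3 (D87927 probe), Cxcl6 and Ppbp were larger in that fit, 4.83 for Cxcl1 and 8.83 for Cxcl2, with wider errors. Those of Cxcr2 (2.36, limma unadjusted p = 0.1) and Pf4 (1.04, limma unadjusted p = 0.17) were smaller, and the symbol probe of Cxcl3 gave -1.04. Of the members, 5 had an unadjusted p below 0.05 with a rise of at least 2-fold, where 6.33% of all probes did. In the pairs scanned on a single day, animals 4 and 9, Cxcl2 differed by 9.70 and 7.96 and Cxcl1 by 5.33 and 4.33.

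The 11 OSCC pieces fell apart along the same line for most of the ligands. The widest gap between OSCC levels placed animals 17, 21, 22 and 24 below and animals 4, 9, 11, 13, 16, 25 and 26 above for Cxcl1, Cxcl2, Cxcl3 (D87927 probe), Cxcl6 and Ppbp, and it was 32.4% to 44.5% of the range of their levels. The widest gap of 1.68% of all 30329 probes with a value on every OSCC array made the same split with these 4 animals below. For Cxcr2 the gap placed animal 21 with the upper pieces, and for Pf4 it set animal 17 alone above the rest.

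The split was also present within slides. Animals 11, 13, 16 (upper) and 17 (lower) shared a slide, as did animals 25 (upper) and 21, 22 and 24 (lower). In the lower pieces Cxcl1 lay between -3.76 and -2.71, inside the normal range, whereas Cxcl2, between -2.79 and -0.57, exceeded the normal piece of the same rat in animals 17, 21 and 22. The Cxcl2 difference in animal 22 was 5.50, against -0.37 for Cxcl6 and 0.24 for Cxcl3 (D87927 probe).

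Animal 24 differed from the rest in having Cxcl1, Cxcl2, Cxcl3 (D87927 probe), Cxcl6 and Ppbp all lower in OSCC. Its OSCC piece was lower than its normal piece for Cxcl1 by 1.34, for Cxcl6 by 1.64 and for Cxcl2 by 0.71, and the differences were -3.55 for Cxcl3 (D87927 probe) and -5.25 for Ppbp. Cxcl1 and Cxcl6 were also lower in OSCC in animal 22, at -0.17 and -0.37. Pf4 (1.42) and Cxcr2 (0.21) were higher in the OSCC piece of animal 24. The normal piece of animal 24 had Il1b at -1.24, second to animal 25 among the normal pieces, and Csf3r at -3.44, within the range of the others. The keratinocyte list averaged 2.81 in the OSCC piece of animal 24 and 5.06 to 6.12 in the other OSCC pieces, and the part of this in the result was not tested.

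**Figure D2:**
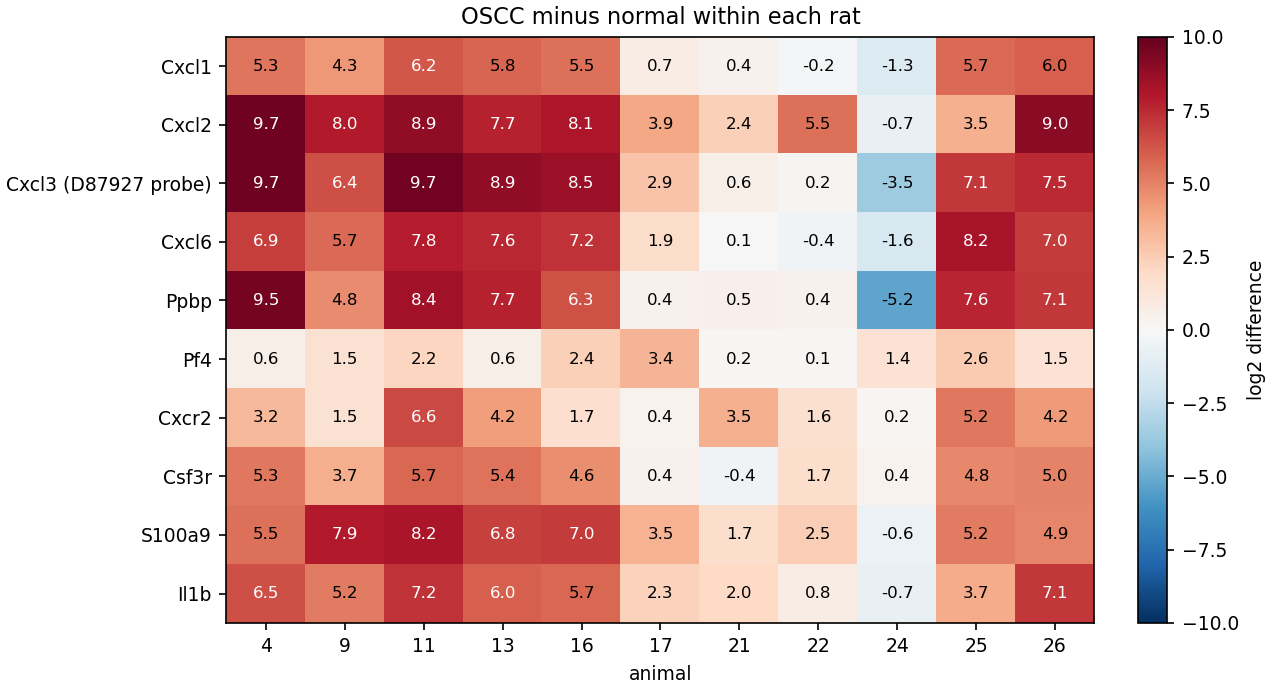
Log2 difference, OSCC minus normal, of the called members and of Csf3r, S100a9 and Il1b in each of the 11 rats, in red where OSCC was higher and in blue where it was lower. The 5 ligands from Cxcl1 to Ppbp differ by at least 3.55 in animals 4, 9, 11, 13, 16, 25 and 26 and are negative in animal 24, while Pf4 is highest in animal 17 at 3.42.

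Neutrophil genes rose with the members. Csf3r, the receptor for granulocyte colony-stimulating factor, ran from -4.08 to -2.95 in normal tissue and from -3.33 to 1.94 in OSCC, and its difference was 3.33 ± 0.63 (SE, n = 11 pairs; limma adjusted p = 0.0019). Its widest gap in OSCC made the same split of animals as the ligands. Of the 34 neutrophil genes, 22 were called higher and 1, Hdc, lower, with a median difference of 1.69 against -0.24 over all probes, and 11 of the 34 made the same split.

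Among them, S100a9 differed by 4.78 and Mmp8, a collagenase of neutrophil granules, by 2.34 (limma adjusted p = 7.1e-04 and 0.0068). S100a8 differed by 4.51 over 10 pairs, because the spot in the OSCC piece of animal 25 was marked as an outlier. Of those at background in every normal piece, Lcn2 was at least 12.3-fold higher, Trem1 at least 6.60-fold and Mcemp1 at least 3.65-fold. The granule genes Mpo and Elane, which are transcribed in the bone marrow, were well above background on 0 and 1 of the 22 arrays. In bulk tissue, more cells of a type and more RNA per cell cannot be told apart.

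The list mean of the neutrophil genes ran from -4.09 to -3.47 in normal tissue and from -3.44 to -0.60 in OSCC, where the pieces of animals 17, 21, 22 and 24 were the 4 lowest, at -3.44 to -3.02. The macrophage list had 10 of 16 genes called higher, with Mpeg1 (at least 3.51-fold), Msr1 (at least 1.28-fold), Cd14, Cd68 and Lyz2 in front, and its mean ran from -2.07 to -1.20 in normal tissue and from -1.30 to 0.40 in OSCC. The part of either cell type in the members' levels was not tested.

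The change of each member was set against that of Csf3r in the same rats. In the limma fit on these ratios 97.5% of all probes were called, 0.122% higher and 97.3% lower, since the change of Csf3r was subtracted from every probe. Its calls of 2 members higher and 3 lower are therefore not read, and an exact sign-flip permutation test over the 11 pairs (two-sided, 9 probes compared) was added after the data were seen. Cxcl2 rose by 2.66 ± 0.60 more than Csf3r (SE, exact p = 0.00488, adjusted over the 9 comparisons 0.0146), in 9 of 11 pairs, and by 1.57 ± 0.33 with normexp (exact p = 0.00293). Cxcl3 (D87927 probe) rose by 1.95 ± 0.77 more (exact p = 0.0361, adjusted 0.0686), also in 9 of 11 pairs, and by 1.00 ± 0.42 with normexp (exact p = 0.041, adjusted 0.0615).

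The mean rise of Cxcl1 could not be told from that of Csf3r, with a difference of 0.17 ± 0.30 (SE, exact p = 0.589). Still, Cxcl1 was above Csf3r in 9 of 11 pairs, with a median of 0.495 and a lowest value of -1.91, in animal 22. Cxcl6 differed by 1.24 ± 0.54 (exact p = 0.0518) and by 0.14 with normexp, Ppbp by 0.99 ± 0.80 (exact p = 0.245) and by 0.11 with normexp, and Cxcr2 by -0.38 ± 0.56 (exact p = 0.518) and by -0.75 with normexp (exact p = 0.0381, adjusted 0.0615). None of the 3 passed adjustment, and of 11 pairs Cxcl6 was above Csf3r in 9, Ppbp in 8 and Cxcr2 in 3. Pf4 changed by 1.83 less than Csf3r, a difference of -1.83 ± 0.74 (exact p = 0.0381, adjusted 0.0686), with only 3 of 11 pairs above. Cxcr1 and the symbol probe of Cxcl3, at background, had differences of -3.66 and -3.50 (exact p = 0.00488 each).

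The reference mattered, and S100a9 differed from Csf3r in pattern. On the normal arrays S100a9 was well above background on all 11, with a mean of -0.04 against -3.54 for Csf3r. Its widest gap in OSCC set animal 24 alone below the rest, and which cells express it was not tested. With S100a9 in place of Csf3r, Cxcl2 rose by 1.21 ± 0.56 more and no longer passed (exact p = 0.0596, adjusted 0.0894). Cxcl1, Cxcl6 and Ppbp changed sign, to -1.29 (exact p = 0.0166, adjusted 0.0374), -0.22 and -0.47, and Cxcr2 changed by -1.84 (exact p = 0.0322, adjusted 0.058). The mean of 16 neutrophil genes that were well above background on at least 11 arrays was a further reference. The 4 ligands of the ELR group exceeded it, Cxcl3 only by its D87927 probe, from Cxcl2 by 4.04 (exact p = 0.00293, adjusted 0.0146) to Cxcl1 by 1.55 (exact p = 0.0146, adjusted 0.022). The symbol probe of Cxcl3 gave -2.12 (exact p = 0.00488, adjusted 0.0146). The 16 genes left out Lcn2, Trem1 and Mcemp1 and held Hdc, which fell. Cxcl3 (D87927 probe) and Cxcl6, at 9 and 8 arrays, would not pass that filter themselves.

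**Figure D3:**
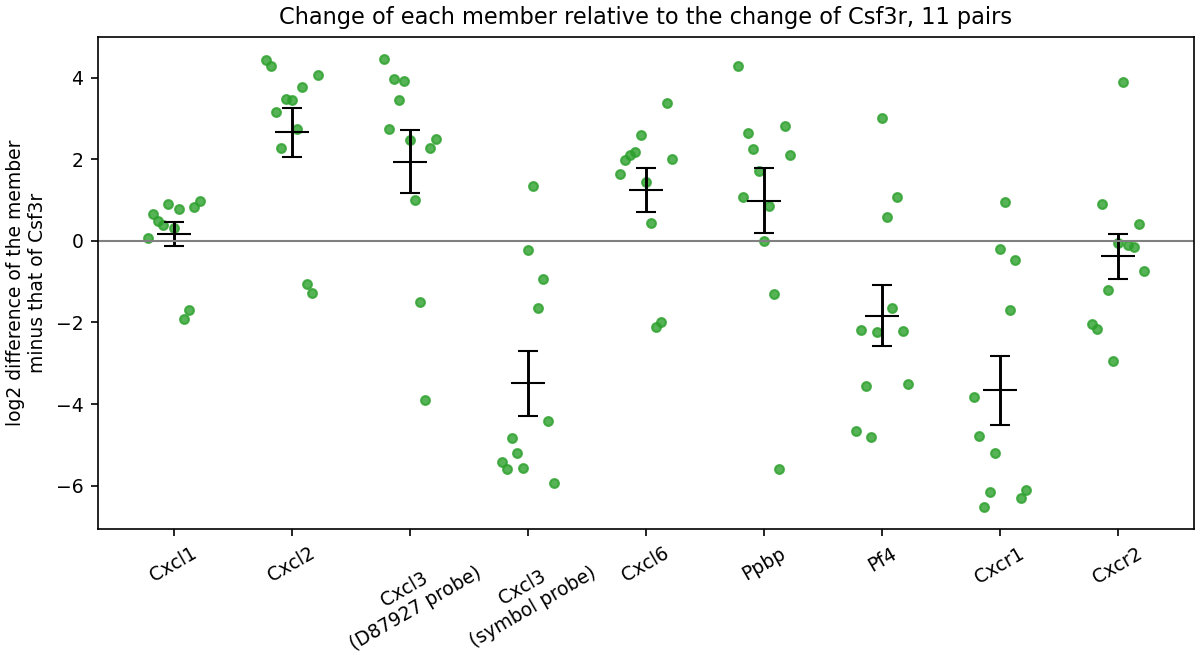
Log2 difference (OSCC minus normal) of each member minus that of Csf3r, with 1 point per rat, the mean as a black bar and its SE as whiskers. Cxcl1, Cxcl2, Cxcl3 (D87927 probe), Cxcl6 and Ppbp lie mostly above 0 and Pf4 mostly below it. Cxcl1 lies within 1 of the Csf3r change in 9 of 11 rats.

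Since the 11 OSCC arrays lay in separate clusters of 7 and 4, no correlation was taken over all of them as a test, and relations were computed within the 7 upper arrays (18 relations, exact permutations, two-sided). There, Cxcr2 followed Il1b with Pearson r = 0.980 (exact p = 1.98e-04, adjusted 0.00357) and Spearman rho = 1.00 (exact p = 3.97e-04, adjusted 0.00714), and Cxcl2 followed Il1b with r = 0.980 (exact p = 5.95e-04, adjusted 0.00536) and rho = 0.964 (exact p = 0.00278, adjusted 0.025). Cxcl2 followed Csf3r with r = 0.937 (exact p = 0.00337, adjusted 0.0152) and rho = 0.929 (exact p = 0.00675, adjusted 0.0405), and Cxcr2 followed Csf3r with r = 0.951 (exact p = 0.00179, adjusted 0.0107) and rho = 0.857 (exact p = 0.0238, adjusted 0.107, so the rank correlation did not pass). Without the 2 arrays farthest from the median of the other gene, r for Cxcr2 and Cxcl2 was 0.978 and 0.833 with Il1b and 0.746 and 0.704 with Csf3r.

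The other 14 relations did not pass adjustment by either coefficient. For Cxcl1, Cxcl3 (D87927 probe), Cxcl6 and Ppbp the r with Csf3r was 0.796 to 0.848 over the 7 arrays and -0.555 to 0.129 without the 2 farthest, so it rests on those arrays, among which animal 9 had the lowest level of all 4 ligands. Taken on pair differences, 0 of the 18 relations passed adjustment and 6 had an unadjusted exact p below 0.05.

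Of 10150 or 10151 genes well above background on all 11 OSCC arrays, those whose levels were most like each member were ranked by Pearson r over the 11 arrays, as a description, since any gene with the same 7 and 4 split gives a high r. For Cxcl2 they were Trib1 (0.982), Csf3r (0.981) and Runx1 (0.979). For Cxcl1 they were Myof and Il17ra (0.989 each), the latter the receptor subunit for interleukin-17, and Tmem119 (0.986). Cxcl6 was most like Cxcl1 and Runx1 (0.985 each) and Sphk1 (0.981), and Cxcl3 (D87927 probe) most like Fcrl2 (0.981), Plaur (0.978), the urokinase receptor, and A3galt2 (0.973).

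Ppbp was most like Gprc5a (0.988), Ifit3 (0.987) and LOC681371 (0.985), and Cxcr2 most like Lrfn4 (0.983), Napsa (0.980) and Ier5 (0.979). Pf4 was most like Golm2 (0.939), Hexa (0.933) and Selenos (0.932), while its r with Csf3r was -0.11, rank 5499 of 10150. Csf3r ranked 90 for Cxcl1, 47 for Cxcl3 (D87927 probe), 23 for Cxcl6, 14 for Ppbp and 442 for Cxcr2.

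The 2 platelet chemokines thus had different patterns. Ppbp and Pf4 differed in their change by 2.82 ± 1.41 (SE, exact sign-flip permutation p = 0.0762), from -6.67 in animal 24 to 8.95 in animal 4, with Ppbp higher in 9 of 11 pairs. In the OSCC piece of animal 17 Pf4 had its highest level, 3.28, while Ppbp lay at -5.40 and was not well above background.

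Platelet genes gave a mixed result. Of 16 platelet genes found, 4 were called higher and 1 lower, with a median of -0.34. Those higher were Thbs1 (at least 2.22-fold), Nfe2 (at least 1.60-fold), Itgb3 (at least 1.76-fold) and Selp, of which Thbs1 and Selp are also made by stromal cells and endothelium, and the lower was P2rx1. The defining marker Gp9 was well above background on 0 arrays, Gp1bb differed by -0.62 ± 0.22 (SE, limma adjusted p = 0.04; under 2-fold and not called), and Itga2b and Tubb1 were not found under their symbols. The platelet list mean ran from -4.34 to -3.61 in normal tissue and from -4.04 to -3.26 in OSCC, and red cell genes fell, 4 of 5 called lower, with Hbb at -1.13 and Alas2 at -1.33.

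Genes of the pathways that induce the ligands were higher in OSCC too. Of the 39 genes of this inducer list, 19 were called higher and 0 lower. By role these were 12 of 18 cytokines, 2 of 8 cytokine receptors and 5 of 13 NF-kappaB genes. The list also holds inhibitors of these pathways. Il1rn, the interleukin-1 receptor antagonist (1.19), and Nfkbie, an inhibitor of NF-kappaB (1.39), were among the 19. Il1b ran from -3.60 to -0.47 in normal tissue with a median of -2.94 and from -1.97 to 4.23 in OSCC with a median of 2.80, and it made the same split of OSCC pieces as the ligands. Its difference was 4.16 ± 0.73 (SE, n = 11 pairs; limma adjusted p = 0.0013).

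Il36g, an epithelial interleukin-1 family cytokine, differed by 4.38, Il36a by 3.68 and Il1a by 3.06. Il17a, a T cell cytokine, stood well above background in 0 normal pieces and 7 OSCC pieces and was at least 1.70-fold higher. Tnf differed by 2.11 ± 0.52 and Csf3, the ligand of Csf3r, by 2.62 ± 0.55 (SE; limma adjusted p = 0.0082 and 0.0033). Of the 39 genes, 8 made the same split of OSCC pieces: Birc3, Csf2ra, Il17ra, Il1b, Nfkb1, Nfkb2, Nfkbiz and Tnf.

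Downstream of the receptor, 6 of 29 signalling genes were called higher and 0 lower, with a median of 0.41. Among them were the Src-family kinase Fgr (2.64), the exchange factor Vav1 (2.43), the actin regulator Was (at least 1.13-fold) and the small GTPase Rac2 (1.18). The G protein subunits, arrestins and receptor kinases were not called, and neither were most other genes of the list. Of the scavenging receptors, which remove chemokines without signalling, Ackr2 differed by -0.03 ± 0.18 and Ackr3 by 0.15 ± 0.18 (SE), 0 of 3 were called, and Ackr1 was not found under its symbol. Whether these receptors take up the ligands described here was not tested, and removal of the ligands was not measured.

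Of 15 adhesion genes of neutrophil recruitment 6 were called higher, among them Itgb2 (2.62), Itgal (2.38), Itgam (2.13) and Selp (2.01). Of 12 other CXC family genes 5 were called higher, namely Cxcl17 (at least 3.41-fold), Cxcl13 (3.61), Cxcr6 (2.84), Cxcr4 (1.72) and Cxcl16 (1.19). The keratinocyte list had 1 of 9 genes called, Dsg3 at 1.07. Beside these lists, the 9 member probes had a median difference of 3.49 and 77.8% called, against -0.24 and 13.8% of all probes.

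**Figure D4:**
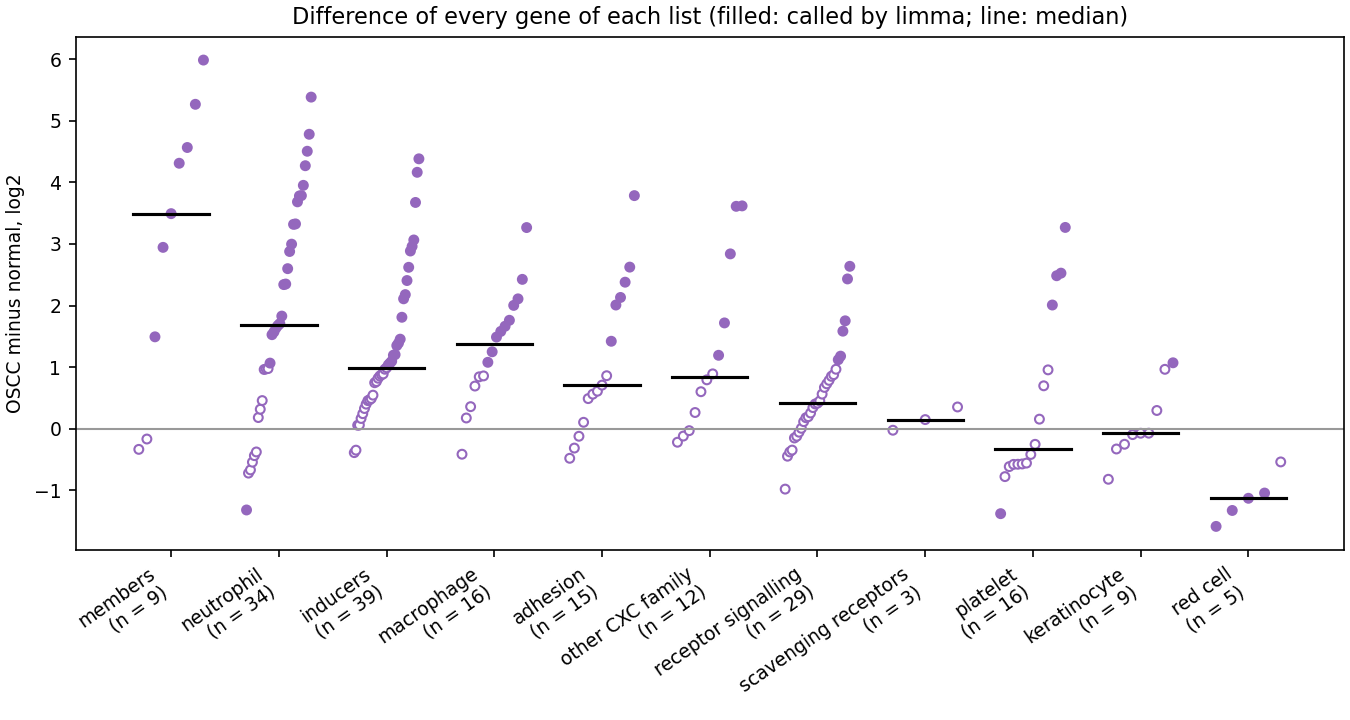
Log2 difference (OSCC minus normal) of every gene of each list, filled where limma called it and with a bar at the list's median. The members' median of 3.49 lies above the neutrophil median of 1.69 and the inducer median of 0.99, and the platelet, keratinocyte and red cell medians lie below 0.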

How the data were processed

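Scanner files of 22 arrays were used. The authors' Feature Extraction software (version 9.5.3.1, as recorded with the scans) gave the deposited intensity of each spot, background-subtracted and detrended, and the authors also deposited a ratio of it to the array's 75th percentile. Control spots and 9196 spots (0.975%) marked as outliers were left out, log2 intensities of a probe's spots were averaged and set relative to the 75th percentile of the array. Dim signals stay in the fit, so folds of dim genes depend on background handling. The paired comparison used limma (version 3.58.1, under R 4.3.3) and took rat as a block because each animal gave both pieces (within-rat correlations of deviations -0.213 to 0.242). Tested on simulated arrays of like spread, the fit called 93 of 100 true changes of 2 log2 units and 98 of 100 of 3. The simulation changed randomly drawn probes by fixed amounts and held no slides, scan days or split of pieces. Its rates therefore do not describe the members. The brightest probe stood for a symbol. "At least" folds use the lowest signal well above background on each dim array. Precision is limited by the number of arrays.

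The members and gene lists were chosen with earlier results of these data known. Genes named are the members, defining cell markers, preset inducers and scavenging receptors, the up to 5 called genes per list with the largest difference, and the 3 genes most like each member, except 2 genes that are not reported here. The alternatives tried were other scalings, background corrections, filters, batches, tests and left-out pairs.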

Additional observations from a re-analysis of the deposited data

How the results depend on the processing

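The 7 member calls were kept by count in the scalings tried, normexp background correction, the authors' values, the slide as a random block, the methods' t-test and each left-out pair (7 in all), and 6 were called in the 9 pairs scanned on different days. The fit without the pairing (no replicate block) gave 7 members, 23 neutrophil genes, 54 genes of the other lists and 4227 probes against 4201, so the pairing changed no count of calls by over 1.5 times. A filter on dim probes kept 4 of the members and called 4, with 13 neutrophil genes in place of 23. With scan day as a term limma called 3 probes, 0 members, 0 neutrophil genes and 0 genes of the other lists, where 9578 probes, 5, 21 and 41 passed at an unadjusted p below 0.05 with a 2-fold change, and 3 members relative to Csf3r. Normexp gave 1701 probes and 25 genes of the other lists in place of 54, and leaving out animals 21, 22 and 24, which the study names as variable, gave 6924 probes. Leaving out 1 pair gave 3649 to 4799 probes, 21 to 26 neutrophil genes, 48 to 60 genes of the other lists and 3 to 6 members relative to Csf3r. These counts relative to Csf3r come from the limma fit on ratios, which called 97.5% of all probes and is not read, and not from the sign-flip test. Pair differences left 0 of 18 relations in place of 4, and the arrays of 1 scan day were not run because 5 of the 7 remain. The scalings moved the median over all probes from -0.24 to between -0.44 and -0.03.

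Some values changed sign. The symbol probe of Cxcl3 gave 0.11 with quantile normalization, 0.024 in the 9 pairs scanned on different days and -0.284 to 0.005 with 1 pair left out, the last without animal 9. Cxcr1 gave 0.16 with quantile normalization, 0.006 with normexp, 0.091 with the authors' values and 0.16 with scan day. These 2 probes were at background. Relative to S100a9 in place of Csf3r, Cxcl1 gave -1.29, Cxcl6 -0.22 and Ppbp -0.47, and relative to the mean of neutrophil genes Cxcr2 gave 1.00. The cause was not tested.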
